A study of Mus musculus with 2 samples.

Results

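The signature genes of regulatory T (Treg) cells were examined in total cells of the mediastinal lymph nodes (MedLNs) of WT C57/B6J mice with asthma induced by ovalbumin (OVA). The members were 10 genes taken by symbol, Foxp3, Il2ra, Ikzf2, Ikzf4, Ctla4, Lrrc32, Nrp1, Gpr83, Izumo1r and Tnfrsf4, out of 31053 genes measured, and each symbol named 1 row. One library came from mice w/o butyrate and 1 from mice given butyrate (C4), a short-chain fatty acid made by gut bacteria. Both groups carried the OVA-induced asthma model, and an unimmunized group was not analysed here. The cells of 4 mice, aged between 5 and 13 weeks, were pooled into each library. Butyrate was given as the sodium salt in drinking water or by gavage, and the route used for these libraries was not given in the sources used here. With 1 library per condition no test between conditions was possible, so no p-value is given. Intervals are 95% intervals that cover counting error only, not the spread between mice or between cells.

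Treg cells restrain immune responses and in mice are marked by the transcription factor Foxp3, encoded on the X chromosome. They express the high-affinity receptor for IL-2, a cytokine they need for survival but make little of, and they act partly through CTLA-4, which removes costimulatory ligands from antigen-presenting cells. In airway allergy Treg cells limit the type 2 response to inhaled antigen. Several of these genes are not exclusive to Treg cells, since activated T cells also express the IL-2 receptor, CTLA-4 and OX40.

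The 10 genes lie at separate loci in the mm10 (GRCm38) genome, apart from 1 pair of neighbours. Foxp3 spans chrX:7573644-7595245. Gpr83 spans chr9:14860210-14870789 and Izumo1r spans chr9:14885814-14903949, with 15024 bases and 0 protein-coding genes between them, and they are read from opposite strands toward each other. Tnfrsf4, at chr4:156013843-156016612, lies 9.6 kb from Tnfrsf18, which encodes GITR, another costimulatory receptor of Treg cells. Foxp3 has 2 RefSeq start sites. RefSeq promoter windows, from 250 bases before to 50 bases after a start site in GRCm38.p6, were at hand for 7 of the 10 genes. Those of Foxp3, which defined the cells, of Il2ra, a gene of the receptor arm of the IL-2 circuit, and of the neighbours Gpr83 and Izumo1r, which were higher with butyrate in Foxp3+ cells, are shown on the strand of the gene. Capitals mark 4 motifs searched on both strands, namely TAAACA (forkhead), TTCNNNGAA (STAT), TGTGGT (RUNX) and TTTCCA (NFAT).
Foxp3, chrX:7579426-7579725, plus strand: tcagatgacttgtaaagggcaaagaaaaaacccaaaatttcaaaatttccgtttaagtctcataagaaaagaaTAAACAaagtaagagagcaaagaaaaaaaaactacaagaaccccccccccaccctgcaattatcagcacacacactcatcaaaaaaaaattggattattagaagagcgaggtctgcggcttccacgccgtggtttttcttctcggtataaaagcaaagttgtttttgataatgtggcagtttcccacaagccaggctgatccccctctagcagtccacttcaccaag
Il2ra, chr2:11642542-11642841, plus strand: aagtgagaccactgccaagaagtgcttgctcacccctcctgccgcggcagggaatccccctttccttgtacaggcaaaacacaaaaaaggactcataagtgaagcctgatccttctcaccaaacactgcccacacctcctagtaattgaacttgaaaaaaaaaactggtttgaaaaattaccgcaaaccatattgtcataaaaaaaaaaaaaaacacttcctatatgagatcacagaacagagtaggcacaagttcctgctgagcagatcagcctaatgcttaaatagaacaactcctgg
Gpr83, chr9:14859960-14860259, plus strand: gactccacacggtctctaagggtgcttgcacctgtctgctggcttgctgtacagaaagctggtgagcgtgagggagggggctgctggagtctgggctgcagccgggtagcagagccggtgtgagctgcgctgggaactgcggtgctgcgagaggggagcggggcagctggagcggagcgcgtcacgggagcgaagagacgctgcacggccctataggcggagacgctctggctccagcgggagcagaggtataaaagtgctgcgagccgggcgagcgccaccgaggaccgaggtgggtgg
Izumo1r, chr9:14903718-14904017, minus strand: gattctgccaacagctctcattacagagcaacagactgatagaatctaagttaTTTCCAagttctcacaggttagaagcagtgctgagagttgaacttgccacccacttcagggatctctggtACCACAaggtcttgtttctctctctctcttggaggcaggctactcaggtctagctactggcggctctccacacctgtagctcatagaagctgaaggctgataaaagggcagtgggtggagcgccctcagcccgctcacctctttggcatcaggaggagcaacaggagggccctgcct
The Foxp3 window held 1 forkhead match, which 13.4% of all 32851 promoter windows also held. The second Foxp3 window, chrX:7580233-7580532, held 1 STAT match that overlapped 1 NFAT match and is not printed. The Izumo1r window held 1 RUNX match, read as accaca on the printed strand, and 1 NFAT match, which 16.8% and 21.4% of all windows held. The Il2ra and Gpr83 windows held none of the 4, and the STAT motif, found in 8.30% of all windows, was in none of the printed windows. The window of Gpr83 had a GC content of 67.0% and 24 CpG sites, against 52.3% and 3 CpG sites for Izumo1r and medians of 52.7% and 7 over all windows. A match of these letters is a description of sequence and not evidence of binding.

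After filtering, 8774 cells w/o and 8013 cells with butyrate remained, with medians of 5075 and 5649 UMIs (unique molecular identifiers, each 1 captured RNA molecule) per cell. Before filtering, 25 cell barcodes occurred in both libraries. Foxp3+ cells were defined by at least 1 UMI of Foxp3 and of Cd3e and none of Cd8a and Cd79a. Other CD4+ T cells had UMIs of Cd3e and Cd4 and none of Foxp3, Cd8a and Cd79a. CD8+ T cells had UMIs of Cd3e and Cd8a, and B cells had UMIs of Cd79a, without the markers of the other classes. Levels are given as CPM, the UMIs of a gene per 1000000 UMIs of its class. These are 3′ tag counts, so levels are compared between cells for 1 gene and not between genes.

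Foxp3 marked 159 cells w/o and 142 cells with butyrate. Among CD4+ T cells, taken as Foxp3+ plus other CD4+ T cells, the share of Foxp3+ cells was 15.3% (13.2 to 17.7%, exact binomial, 159 of 1037 cells) w/o and 15.5% (13.2 to 18.0%, 142 of 918 cells) with butyrate. The shares thus differed by far less than their counting intervals. With each cell thinned to 2000 UMIs, the expected shares were 18.4% and 19.8%. Foxp3 was sparse even in its own cells: 54 of the 159 cells w/o butyrate and 47 of the 142 with butyrate had a single Foxp3 UMI, and the most in any cell was 9 and 10. At 2000 UMIs per cell, 60.1% and 59.1% of these cells would still show a Foxp3 UMI, and a Foxp3-expressing cell in which no Foxp3 UMI was captured counts here among the other CD4+ T cells. A Cd4 UMI was missing from 74 and 65 of the Foxp3+ cells, which were kept. Outside the class, Foxp3 UMIs were found in 0.146% of B cells w/o butyrate (6 of 4096) and 0.260% with butyrate (10 of 3841), at median depths of 4393.5 and 4612 UMIs, against 4777 and 5339.5 in Foxp3+ cells. By definition Foxp3 was at 0 in the other CD4+ and CD8+ T cells, and its level in Foxp3+ cells, 298 CPM (269 to 330, exact Poisson) w/o and 323 CPM (291 to 358) with butyrate, is a description of the cells that the gene selected.

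The Foxp3+ cells carried the markers of T cells, and the markers of other cell types varied from gene to gene. The 6 T cell markers Cd3e, Cd3d, Cd3g, Trac, Trbc2 and Lck summed to 4503 and 5019 CPM, against 5536 and 5263 CPM in other CD4+ T cells. Of these, a Cd3e UMI was required of both classes by definition. Of 6 B cell markers, Cd79a was at 0 by definition and the list summed to 39.2 and 35.6 CPM, against 29.7 and 31.2 CPM in other CD4+ T cells. The 5 myeloid markers summed to 165 and 126 CPM against 126 and 157 CPM. Most of this was Cst3, at 162 and 125 CPM against 117 and 76.7 CPM in other CD4+ T cells, while Lyz2 and Csf1r were at 0 UMIs in the Foxp3+ cells of both libraries and Itgam and Cd68 had at most 3. The 5 follicular helper T (Tfh) markers summed to 210.1 and 224 CPM against 206 and 169 CPM. Most of this was Sh2d1a, at 181 and 168 CPM against 147 and 111 CPM (log2 0.30, 0.09 to 0.52, and 0.61, 0.36 to 0.85). Bcl6 had 3 and 6 UMIs in Foxp3+ cells and was lower there w/o butyrate (log2 -2.28, -4.60 to -0.66). With butyrate its interval included 0 (log2 -0.80, -2.31 to 0.43). Pdcd1, at 20 and 38 UMIs, was lower w/o butyrate (log2 -0.89, -1.64 to -0.21) and not with butyrate (0.35, -0.21 to 0.88). Il21 was at 0 UMIs and Cxcr5 at 14 and 19. Trdc, the delta chain gene of the gamma-delta T cell receptor, had 25 UMIs in the Foxp3+ cells w/o butyrate (19.6 against 8.45 CPM in other CD4+ T cells, log2 1.21, 0.44 to 1.96) and 6 with butyrate. Gzma, a granzyme gene of NK and cytotoxic T cells, had 26 UMIs w/o (20.4 against 2.36 CPM) and 1 with butyrate. The other NK markers searched were near 0 in Foxp3+ cells, with Ncr1 at 0 UMIs in both libraries and Klrb1c at 0 and 2. Gzmb, a granzyme gene from the list of suppressor products, had 124 and 38 UMIs in Foxp3+ cells. It was lower with butyrate there (log2 -1.52, -2.09 to -0.99). The part of cells with these markers in the differences of the members between the libraries was not tested.

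All 9 members other than Foxp3 were more abundant in Foxp3+ cells than in other CD4+ T cells, CD8+ T cells and B cells, in both libraries. Each was past 2-fold against each of the 3 comparators. The median log2 ratio of the 9 against other CD4+ T cells was 2.88 w/o and 3.28 with butyrate, beside medians of 0.14 and 0.17 over all genes tested. Of 7538 and 7489 genes with at least 50 UMIs over both classes, the 9 members included and Foxp3 left out, 8.5% and 6.89% were at least 2-fold higher in Foxp3+ cells. Against CD8+ T cells the background was 13.2% and 11.6%, and against B cells 13.3% and 12.7%. Lrrc32, Ikzf4 and Gpr83 had under 50 UMIs in other CD4+ T cells of both libraries and passed the limit only through Foxp3+ cells. Against CD8+ T cells and B cells further members, such as Nrp1, did so too. For these members the count past 2-fold is no support beside the background. The interval lay wholly above 2-fold for all 9 members in every comparison, except for Izumo1r against other CD4+ T cells w/o butyrate.

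**Figure D1:**
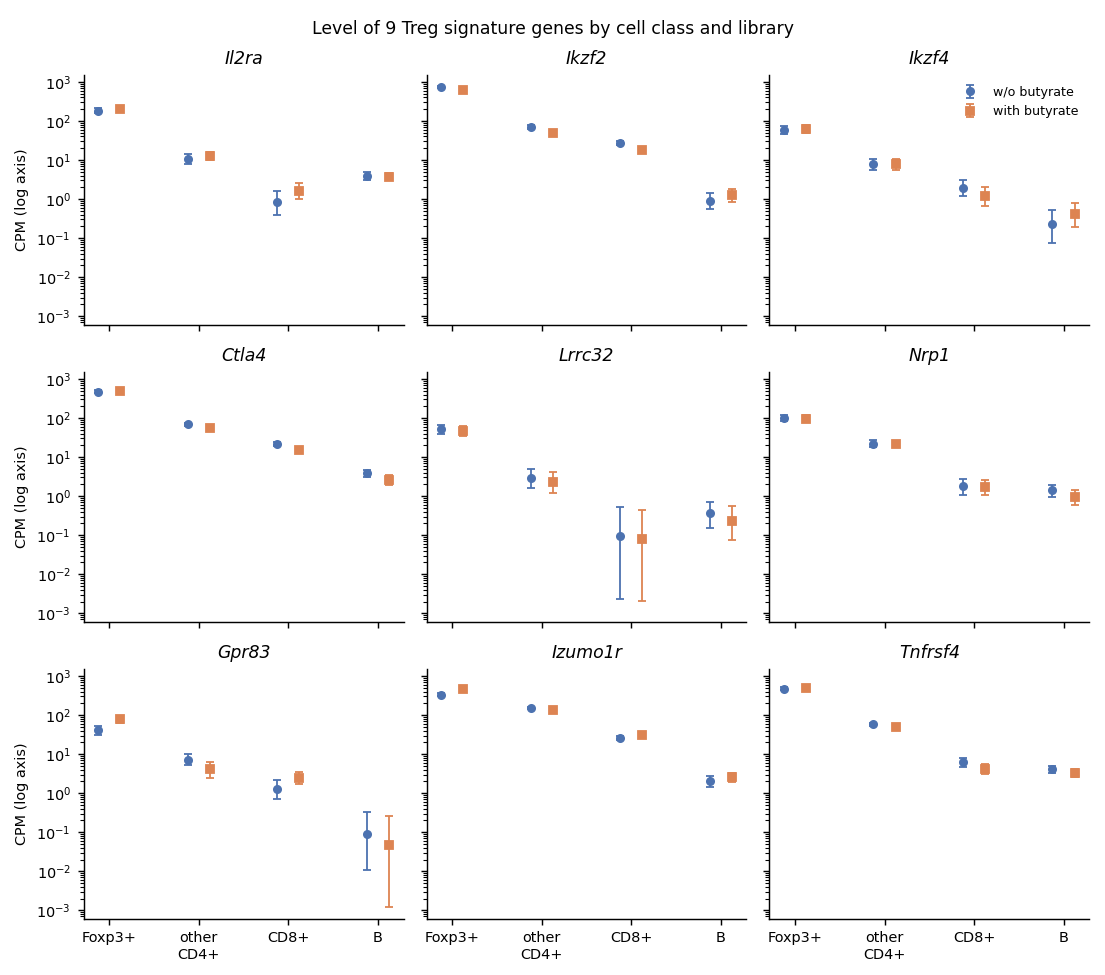
Level of 9 Treg signature genes in CPM (log axis) in Foxp3+ cells, other CD4+ T cells, CD8+ T cells and B cells of the library w/o butyrate (circles) and the library with butyrate (squares), with exact Poisson 95% intervals that cover counting error only. Each gene is highest in the Foxp3+ cells, as for Il2ra with 184 and 208 CPM against 10.6 and 12.6 CPM in other CD4+ T cells.

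Of the transcription factors, Ikzf2, which encodes Helios, a factor common in thymus-derived Treg cells, was at 742 CPM (695 to 791) in Foxp3+ cells w/o and 620 CPM (575 to 668) with butyrate. Other CD4+ T cells held 70.8 and 48.0 CPM, CD8+ T cells 26.7 and 17.9 CPM, and B cells 0.899 and 1.27 CPM. The order was thus the same in both libraries, with 10.5-fold (log2 3.39, 3.21 to 3.57) and 12.9-fold (log2 3.69, 3.48 to 3.90) more in Foxp3+ than in other CD4+ T cells. An Ikzf2 UMI was found in 80.5% of the Foxp3+ cells w/o and 76.1% with butyrate, against 10.2% and 9.15% of other CD4+ T cells. Ikzf4, which encodes Eos, a partner of Foxp3 in gene silencing, was at 58.0 CPM (45.6 to 72.8) and 62.4 CPM (48.6 to 78.8) in Foxp3+ cells. In other CD4+ T cells it was at 7.86 and 7.75 CPM, which gave ratios of 7.38-fold (4.96 to 11.1) and 8.05-fold (5.38 to 12.2). Eos UMIs were found in only 28.3% and 33.8% of Foxp3+ cells.

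The gene of the IL-2 receptor alpha chain, Il2ra (CD25), separated Foxp3+ cells from other CD4+ T cells strongly in both libraries. It was at 184 CPM (161 to 209) w/o and 208 CPM (182 to 236) with butyrate in Foxp3+ cells and at 10.6 and 12.6 CPM in other CD4+ T cells, a ratio of 17.4-fold (log2 4.12, 3.69 to 4.57) and 16.5-fold (log2 4.04, 3.64 to 4.46). CD8+ T cells held 0.847 and 1.62 CPM, less than the 3.91 and 3.77 CPM of B cells. Il2ra was therefore the 1 member whose CD8+ level lay below its B cell level with separate intervals in both libraries. A UMI of Il2ra was found in 52.8% and 59.2% of Foxp3+ cells, 3.08% and 3.48% of other CD4+ T cells and 1.25% and 1.35% of B cells.

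Ctla4, the gene of the inhibitory receptor CTLA-4, was at 478 CPM (440 to 517) and 478 CPM (439 to 521) in Foxp3+ cells, at 69.0 and 54.2 CPM in other CD4+ T cells, and at 21.4 and 15.4 CPM in CD8+ T cells. The ratio to other CD4+ T cells was 6.92-fold (6.06 to 7.92) and 8.82-fold (7.62 to 10.2). Tnfrsf4 (OX40), a costimulatory receptor of the TNF receptor family, was at 474 CPM (436 to 513) and 488 CPM (448 to 531) in Foxp3+ cells. Other CD4+ T cells held 57.6 and 50.4 CPM, and CD8+ T cells 6.11 and 4.22 CPM. Both receptors were thus graded from Foxp3+ cells through other CD4+ T cells to CD8+ T cells, with no overlap of the intervals.

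Lrrc32 (GARP), which anchors latent TGF-beta on the Treg cell surface, had low counts, with 66 and 52 UMIs in all Foxp3+ cells. It was at 51.7 CPM (40.0 to 65.8) w/o and 46.3 CPM (34.6 to 60.8) with butyrate in Foxp3+ cells and at 2.95 and 2.32 CPM in other CD4+ T cells. In CD8+ T cells 1 UMI was found in each library, which gave log2 ratios of 9.10 (6.58 to 14.43) and 9.16 (6.62 to 14.49). Nrp1 (neuropilin-1), a coreceptor for semaphorins, was at 99.6 CPM (83.0 to 118) and 97.1 CPM (79.7 to 117) in Foxp3+ cells against 22.2 and 22.1 CPM in other CD4+ T cells. The Nrp1 ratios, 4.48-fold (3.45 to 5.83) and 4.40-fold (3.35 to 5.77), were among the lowest of the 9.

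Gpr83, a G protein-coupled receptor enriched in Treg cells, was at 40.8 CPM (30.4 to 53.5) w/o and 77.5 CPM (62.1 to 95.6) with butyrate in Foxp3+ cells. Its level in other CD4+ T cells was 7.27 CPM (5.12 to 10.0) w/o and 4.07 CPM (2.52 to 6.22) with butyrate. The ratio was therefore 5.61-fold (3.61 to 8.79) in one library and 19.1-fold (11.7 to 32.3) in the other, and these intervals did not overlap. Izumo1r, which encodes folate receptor 4, was the least specific member, with 331 CPM (300.0 to 364) and 479 CPM (440 to 522) in Foxp3+ cells and 152 and 132 CPM in other CD4+ T cells. Its ratio was 2.17-fold (1.93 to 2.45) w/o and 3.62-fold (3.23 to 4.06) with butyrate, and 32.9% and 33.8% of other CD4+ T cells held a UMI. When only Foxp3+ cells with a Cd4 UMI were used, the Izumo1r ratio w/o butyrate was below 2-fold, and 8 of the 9 members were past it.

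**Figure D2:**
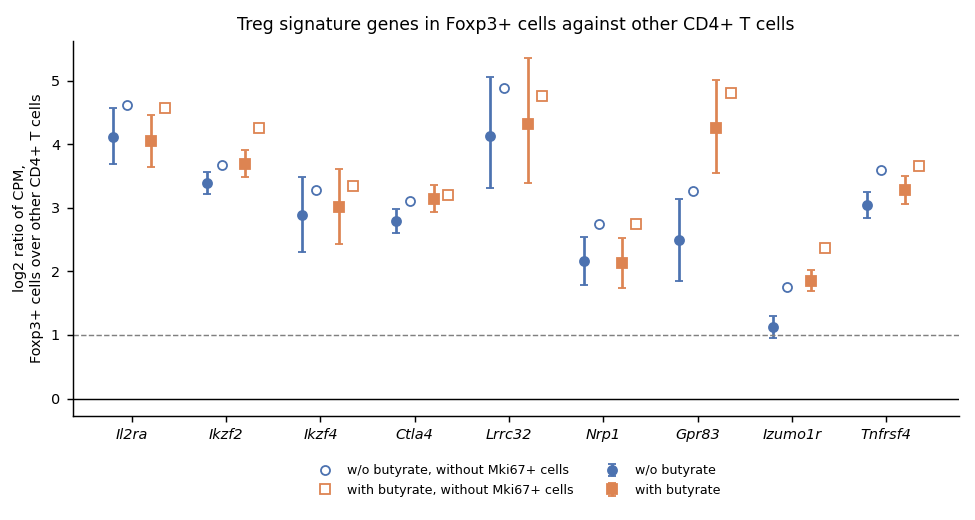
Log2 ratio of CPM in Foxp3+ cells over other CD4+ T cells for 9 Treg signature genes in each library (filled symbols, with 95% counting intervals), and the same ratio after cells with a Mki67 UMI were left out of both classes (open symbols, no interval drawn). All points lie above the dashed line at 2-fold, from 1.12 for Izumo1r w/o butyrate upward.

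The members were found together in single Foxp3+ cells far more often than in other lymphocytes. At 2000 UMIs per cell, the expected share of cells with UMIs of 3 or more of the 9 members was 60.9% w/o and 58.9% with butyrate among Foxp3+ cells (158 and 139 cells of that depth). It was 4.26% and 3.77% among other CD4+ T cells, 0.167% and 0.149% among CD8+ T cells, and 0.0345% and 0.0390% among B cells. Foxp3+ cells with none of the 9 made up 3.93% and 6.60%. Without thinning, 144 of 159 and 119 of 142 Foxp3+ cells held 3 or more, with a median of 5 members per cell in both libraries and at most all 9.

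**Figure D3:**
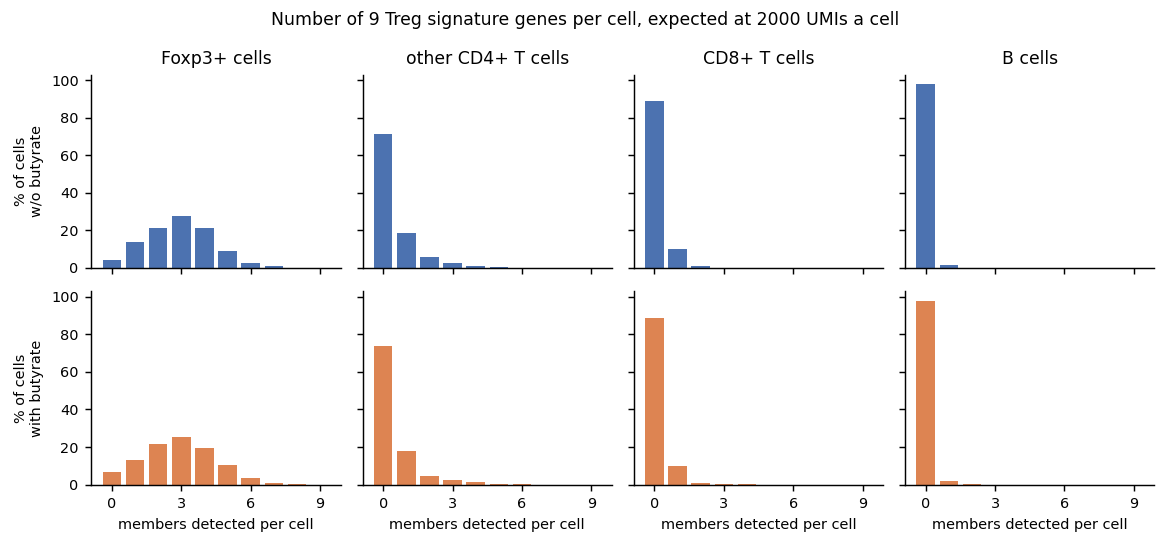
Percent of cells by the number of the 9 Treg signature genes other than Foxp3 detected in a cell, given as the expectation when each cell is thinned to 2000 UMIs, for 4 cell classes (columns) and 2 libraries (rows). Foxp3+ cells centre on 3 members, whereas 71.6% and 73.6% of other CD4+ T cells show none.

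Some CD4+ T cells without a Foxp3 UMI also held several members. In 96 of 878 other CD4+ T cells w/o butyrate and 74 of 776 with butyrate, 3 or more of the 9 were found without thinning. Izumo1r was present in 86.5% and 86.5% of them, Ctla4 in 81.2% and 83.8%, and Ikzf2 in 76.0% and 74.3%, while Lrrc32 was present in 10.4% and 8.11%. Cxcr5 and Pdcd1, 2 markers of Tfh cells, were both detected in 16 of the 96 and 14 of the 74, against 1 of 782 and 4 of 702 of the remaining cells. Taken singly, a Pdcd1 UMI was found in 46.9% and 40.5% of the cells with several members, against 1.79% and 1.71% of the remaining cells. A Cxcr5 UMI was found in 24 of the 96 and 19 of the 74, against 12 of 782 and 12 of 702. Il2ra was present in 24.0% and 28.4% of them, and their median depth was 6627 and 6251 UMIs against 5207.5 and 6028 in the remaining cells.

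Some members were shared with CD4+ T cells that carried Tfh markers. Other CD4+ T cells with UMIs of Cxcr5 and Pdcd1 (17 and 18 cells) held 322 and 381 CPM of Ikzf2, 281 and 199 CPM of Ctla4, 253 and 243 CPM of Tnfrsf4 and 432 and 377 CPM of Izumo1r. Nrp1 in these cells was at 75.3 CPM (37.6 to 135) and 108 CPM (70.1 to 160.0), with intervals that overlapped those of Foxp3+ cells in both libraries. In the same cells Lrrc32 and Gpr83 had 0 UMIs in both libraries. For 0 of 17 and 0 of 18 cells, the exact binomial interval allows a share with a UMI of up to 19.5% and 18.5%. Outside CD4+ T cells, Ikzf2 was at 273 CPM (227 to 326) and 191 CPM (150.5 to 239) in T cells with a Trdc UMI (88 and 69 cells), the gamma-delta T cells, above its level in other CD4+ T cells as a whole.

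Within Foxp3+ cells the members differed between dividing and other cells. A UMI of Mki67, a gene expressed in dividing cells, was found in 26 of 159 Foxp3+ cells w/o butyrate (16.4%, 11.0 to 23.0%) and in 14 of 142 with butyrate (9.86%, 5.50 to 16.0%), against 2.85% and 2.32% of other CD4+ T cells. These cells were deep, with medians of 22537 and 24413.5 UMIs against 4407 and 4969.5 in the rest, and they supplied 46.5% and 33.8% of all UMIs of the class. At least 3 of the 9 members were found in 25 of the 26 and in all 14 of them. Gpr83 was nearly absent from the Mki67+ cells, at 3.37 and 2.63 CPM against 73.3 and 116 CPM in the Mki67- cells. Lrrc32 was at 16.9 and 5.27 CPM against 82.1 and 67.3 CPM, Izumo1r at 170.1 and 153 CPM against 471 and 646 CPM, and Nrp1 at 53.9 and 36.9 CPM against 139 and 128 CPM. Together with Ikzf2 and Ikzf4, 6 of the 9 members were lower in Mki67+ cells of both libraries, with intervals below 0. Over all 3281 and 2984 genes with at least 50 UMIs, 22.2% and 21% had an interval below 0 and 34.5% and 34.3% an interval above 0. Il2ra, by contrast, was at 169 and 182 CPM in Mki67+ cells and 198 and 221 CPM in the rest, and Tnfrsf4 at 433 and 545 CPM against 509 and 459 CPM, with intervals of the ratio that included 0 in both libraries. Ctla4 was 1.95-fold higher in the Mki67+ cells with butyrate (log2 0.96, 0.71 to 1.21) and not w/o butyrate (log2 -0.15, -0.38 to 0.09). Since Foxp3+ cells were chosen at 1 UMI whatever their depth, 10 of the 26 and 3 of the 14 Mki67+ cells entered with a single Foxp3 UMI. The parts of depth and of the cell cycle in these differences cannot be told apart.

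**Figure D4:**
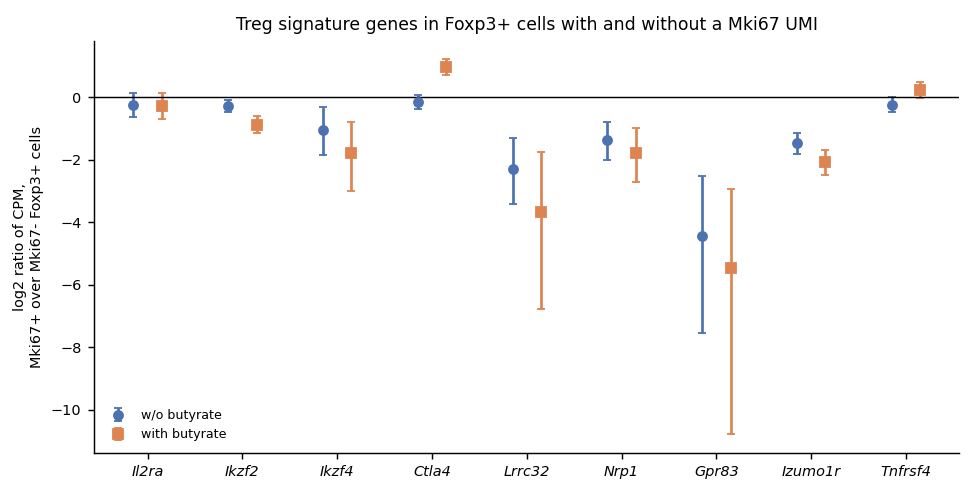
Log2 ratio of CPM in Foxp3+ cells with a Mki67 UMI over Foxp3+ cells without one (26 over 133 cells w/o butyrate, 14 over 128 with butyrate), with 95% counting intervals. Gpr83 has the lowest ratios, -4.44 and -5.46, while Il2ra lies near 0 in both libraries.

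Between the libraries, Gpr83 and Izumo1r were higher and Ikzf2 was lower in Foxp3+ cells with butyrate. Gpr83 was at 40.8 CPM w/o and 77.5 CPM with butyrate, a log2 ratio of 0.93 (0.42 to 1.45). Izumo1r was at 331 and 479 CPM, a log2 ratio of 0.54 (0.35 to 0.72). Ikzf2 was at 742 and 620 CPM, a log2 ratio of -0.26 (-0.40 to -0.12). These 2 higher and 1 lower of 10 members are set against all 5121 genes tested in Foxp3+ cells, of which 5.68% had an interval above and 7.6% an interval below 0. No member reached 2-fold, as 0.41% of genes did upward and 0.918% downward. The other 7 members had intervals that included 0, with ratios of 0.12 for Foxp3, 0.17 for Il2ra, 0.10 for Ikzf4, 0.003 for Ctla4, -0.16 for Lrrc32, -0.04 for Nrp1 and 0.04 for Tnfrsf4. The widest of these intervals, that of Lrrc32, ran from -0.71 to 0.39, and none of the 7 reached 2-fold in either direction. They cover counting error only, so with 1 library per condition they cannot exclude a 2-fold difference between the conditions.

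The comparison was repeated without the Mki67+ cells, whose shares of the Foxp3+ cells had overlapping intervals in the 2 libraries. Without them, the log2 ratio was 0.66 (0.14 to 1.19) for Gpr83, 0.46 (0.25 to 0.66) for Izumo1r and -0.14 (-0.31 to 0.04) for Ikzf2, so that the last interval included 0. Ctla4, level in all Foxp3+ cells, was then lower with butyrate, at 362 CPM against 500.1 CPM w/o butyrate (log2 -0.47, -0.70 to -0.23). Within the 26 and 14 Mki67+ cells the direction was opposite, at 452 CPM w/o and 706 CPM with butyrate. Ikzf2 within the Mki67+ cells was at 669 CPM w/o and 400.5 CPM with butyrate (log2 -0.74, -1.02 to -0.47). With the cells over 20000 UMIs left out instead, 18 and 7 cells of which 17 and 7 held a Mki67 UMI, the ratios of Gpr83 and Izumo1r were 0.60 (0.08 to 1.12) and 0.30 (0.10 to 0.50), and Ctla4 (-0.30, -0.50 to -0.10) and Tnfrsf4 (-0.23, -0.43 to -0.03) were lower. With each Foxp3+ cell weighted the same, the log2 ratio was 0.465 for Gpr83 and only -0.073 for Ikzf2, values without an interval. Interferon-response genes differed between the libraries as well: 6 of 9 tested had an interval below 0 in Foxp3+ cells with butyrate, beside 7.6% of all genes, and the median log2 ratio of the 9 was -0.72, and their part in the differences of the members was not tested.

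In other CD4+ T cells Gpr83 and Izumo1r differed between the libraries in the opposite direction. Gpr83 was at 7.27 CPM w/o and 4.07 CPM with butyrate (log2 -0.84, -1.69 to -0.028, from 37 and 21 UMIs), and Izumo1r at 152 and 132 CPM (log2 -0.20, -0.35 to -0.05). Ikzf2 (70.8 and 48.0 CPM, log2 -0.56, -0.80 to -0.32) and Ctla4 (69.0 and 54.2 CPM, log2 -0.35, -0.58 to -0.12) were also lower. Thus 4 members had an interval below 0 and none above, beside 7.64% below and 6.46% above among 8403 genes tested in these cells. The intervals of Gpr83 (log2 -0.31, -0.85 to 0.23) and Izumo1r (log2 -0.10, -0.22 to 0.013) included 0 when no Cd4 UMI was required of these cells. Again no member was past 2-fold, where 0.214% of genes were higher and 0.631% lower. In CD8+ T cells Ikzf2 (log2 -0.58, -0.84 to -0.32) and Ctla4 (log2 -0.47, -0.76 to -0.18) were lower too, and Izumo1r was higher (log2 0.24, 0.012 to 0.47). Ikzf2 was thus lower with butyrate in all 3 T cell classes, with the interval in Foxp3+ cells including 0 once Mki67+ cells were left out.

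**Figure D5:**
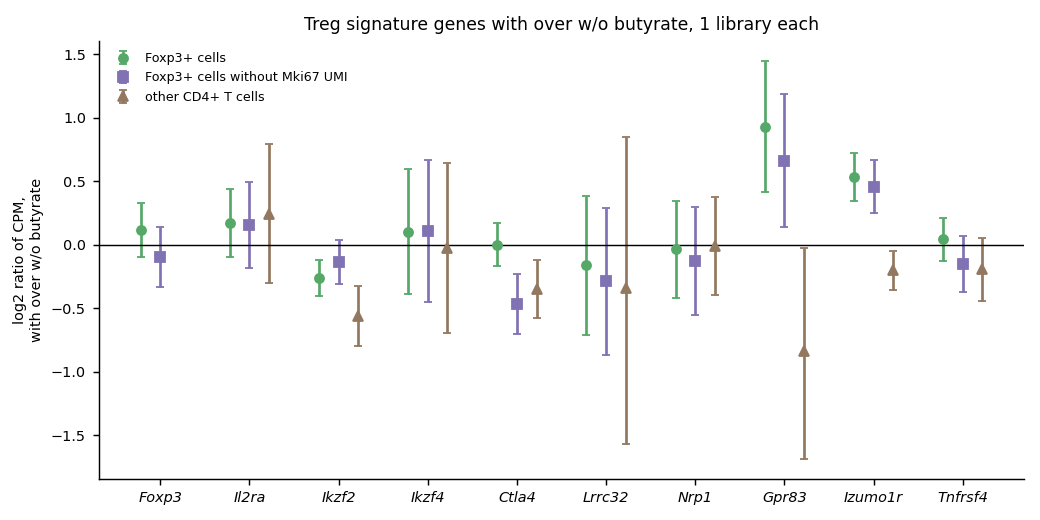
Log2 ratio of CPM with over w/o butyrate for the 10 Treg signature genes in all Foxp3+ cells, in Foxp3+ cells without a Mki67 UMI and in other CD4+ T cells (Foxp3 is 0 there by definition), with 95% counting intervals and 1 library per condition. Gpr83 lies at 0.93 and 0.66 in the Foxp3+ cells and at -0.84 in other CD4+ T cells.

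The 2469 genes at 50 CPM or more in Foxp3+ cells of both libraries were ranked by the smaller of the 2 log2 ratios of Foxp3+ over other CD4+ T cells. The 10 highest outside the members were Klrg1, Ccr2, 1500009L16Rik, S100a6, Tnfrsf9, Coro2a, Mt1, Il2rb, S100a4 and Glrx. Klrg1, an inhibitory receptor of differentiated T and NK cells, came first, with log2 ratios of 5.79 and 7.16 and levels of 98.0 and 110.5 CPM. Il2rb, the beta chain that pairs with the product of Il2ra, had ratios of 2.94 and 2.84. Of the members, 5 fell within the first 13 ranks, Il2ra at 2, Ikzf2 at 4, Tnfrsf4 at 7, Ikzf4 at 11 and Ctla4 at 13, while Nrp1 was at 36 and Izumo1r at 144. Gpr83 and Lrrc32 were under 50 CPM in 1 library and were not in this ranking. Because the limit of 50 CPM was set on Foxp3+ cells, where the members are high, these ranks are no support for the members. Without this limit, among 7538 genes w/o and 7489 with butyrate, Il2ra was at 6 and 5 and Ikzf2 at 16 and 7. Tnfrsf4 was at 33 and 13, Ikzf4 at 52 and 24 and Ctla4 at 59 and 18. Lrrc32 was at 5 and 2, Gpr83 at 101 and 3, Nrp1 at 148 and 91 and Izumo1r at 524 and 131. The limit of 50 UMIs over both classes still applied. Lrrc32, Ikzf4 and Gpr83 passed it only through Foxp3+ cells, so their ranks are no support either.

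The wider pathway followed in part. Of the 14 tested genes of the IL-2 and Foxp3 circuit, 3 were at least 2-fold higher in Foxp3+ cells of both libraries. The shares over all genes were 8.5% w/o and 6.89% with butyrate. The 3 were Il2rb, Cish (log2 2.66 and 2.47) and Socs2 (log2 3.22 and 4.08), the last 2 being feedback inhibitors induced by IL-2 signalling. Satb1, a chromatin organizer, was lower, with log2 ratios of -1.51 and -1.15, and Il2 itself had 0 and 1 UMI in the Foxp3+ cells. Of 8 costimulation genes, 4 were at least 2-fold higher in both libraries, beside the same 8.5% and 6.89% of all genes. These were Tnfrsf18 (log2 1.90 and 1.94), Tnfrsf9 (3.42 and 2.95), Tnfrsf1b (2.53 and 2.20) and Icos (1.69 and 2.02). Cd40lg, the ligand by which helper T cells activate B cells, was lower (-2.20 and -2.14). Of the suppressor products, 4 of 11 had enough UMIs w/o and 3 with butyrate. Beside 8.5% and 6.89% of all genes, 2 were at least 2-fold higher in both, Nt5e (CD73, log2 1.46 and 1.89) and Lag3 (1.02 and 1.45). Gzmb (log2 6.4 w/o butyrate) had enough UMIs only in that library. Of 14 effector and tissue Treg genes, 7 w/o and 8 with butyrate had enough UMIs. Some passed this filter only through their level in Foxp3+ cells, as did Socs2 and Gzmb above. All of the 7 and 8 effector and tissue Treg genes were at least 2-fold higher, beside 8.5% and 6.89% of all genes. Because of the filter, the count is no support for the list as a whole. Among them were Prdm1 (log2 2.91 and 2.97), which encodes Blimp-1, and Gata3 (1.24 and 1.10), the type 2 lineage factor. Il1rl1, the receptor for the alarmin IL-33, had log2 ratios of 4.51 and 4.03, the first from fewer than 50 UMIs over both classes. Tcf7 (log2 -1.70 and -1.81) and Lef1 (-1.67 and -1.51), factors of naive and memory T cells, were lower in both. The share of all genes at least 2-fold lower in Foxp3+ cells was not computed. None of the 6 T cell markers differed by 2-fold, where Cd3e was required of both classes by definition.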

How the data were processed

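Total MedLN cells of 2 conditions were profiled with a 10x 3′ v3 kit, 1 library per condition. The authors deposited UMI counts per gene and cell barcode for each library, made with Cell Ranger 6.0.1 on mm10. From these counts, barcodes with over 10% mitochondrial UMIs or under 200 genes (186 w/o and 327 with butyrate) were dropped. Scrublet (scanpy 1.11.5) scored the rest, and its 721 and 592 top-scoring cells, an expected doublet rate of 0.8% per 1000 cells, were left out, since the study's own doublet tool was not given in the sources used here. The kept cells held 52572289 and 52224282 UMIs. UMIs were summed per class and library, and levels are CPM of the class total. Exact Poisson, Clopper-Pearson and conditional binomial intervals (95%, scipy 1.17.1) cover counting error only. Ratios were read against all genes with at least 50 UMIs over both sides. Shares at 2000 UMIs are expectations over all draws without replacement, with shallower cells left out. In ratios, 3 counts were taken in place of a 0. The scripts were tested on simulated data. Named genes were the members, genes of the pathway and marker lists, and the 10 genes outside the members with the highest smaller ratio of the 2 libraries. The members, lists and tests were chosen with earlier results of these data known. Leaving out cells over 20000 UMIs and cells with a Mki67 UMI was added after the data were seen. The gene positions are those of GENCODE M21.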

Additional observations from a re-analysis of the deposited data

Results flagged for a closer look

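The log2 ratio of Gpr83 with over w/o butyrate was 0.927 in Foxp3+ cells and -0.838 in other CD4+ T cells. The classes thus lay on opposite sides of 0, with 1 library per condition. The log2 ratio of Izumo1r was 0.535 in Foxp3+ cells, -0.201 in other CD4+ T cells and 0.241 in CD8+ T cells. When no Cd4 UMI was required of the other CD4+ T cells, the values there were -0.31 for Gpr83 and -0.10 for Izumo1r, with intervals that included 0. These differences between cell classes were not tested.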

How the results depend on the processing

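Over 609 values under alternatives for 48 results, 508 lay within the counting interval or within 1.5 times the count given in the report, 101 lay outside it and 0 reversed a value whose interval left out 0. The share of Foxp3+ cells among CD4+ T cells was 10.7% w/o and 10.9% with butyrate when 2 Foxp3 UMIs were required, 8.83% and 9.03% when a Cd4 UMI was required, 7.94% and 8.47% when no Cd4 UMI was required of the other CD4+ T cells, and 18.4% and 19.8% with cells thinned to 2000 UMIs. The share of Foxp3+ cells with 3 or more members was 84.4% and 80.9% at 4000 UMIs and 90.6% and 83.8% without thinning. All 9 members were past 2-fold over other CD4+ T cells under each of 14 alternatives with butyrate. W/o butyrate 8 were past it in 2 alternatives, where Izumo1r had log2 ratios of 0.98 (Cd4 UMI required) and 0.90 (totals without ribosomal protein, mitochondrial and immunoglobulin genes). The number of members with a higher level with butyrate in Foxp3+ cells, 7 of 10, was 4 without cells over 20000 UMIs and 4 without Mki67+ cells. The number with an interval on 1 side of 0, given as 3, was 5 without cells over 20000 UMIs (2 above, 3 below). Thinning and equal weights for cells gave no such interval and no count of them. With at least 200 UMIs per gene, 6.62% and 4.27% of all genes were past 2-fold over other CD4+ T cells, against 8.5% and 6.89%. No paired analysis was possible because each condition had 1 library, and no replicate could be left out. The depth limits Lrrc32, Gpr83 and Ikzf4 most, with 52 to 87 UMIs each in the Foxp3+ cells of a library.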

Other observations

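Not all Foxp3 UMIs fell in the T cell class. Of 231 cells with a Foxp3 UMI w/o and 210 with butyrate, 159 and 142 were in the Foxp3+ class, with 71.4% and 72.2% of all Foxp3 UMIs. A Cd79a UMI was found in 37 and 35 of the cells with Foxp3, and no Cd3e UMI in 35 and 36 of them. Nrp1 was also found outside lymphocytes, with 15 UMIs in 23 cells with a Lyz2 UMI w/o butyrate (92.8 CPM, 52.0 to 153) and 3 UMIs in 20 such cells with butyrate (27.8 CPM, 5.73 to 81.2), intervals that overlapped.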
